A study of Homo sapiens with 9 samples.

Results

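The 6 libraries described here compare Huh7 cells carrying a short hairpin RNA against IMPDH2 (shIMPDH2, 3 libraries) with Huh7 cells carrying a control hairpin (shControl, 3 libraries). They are 6 of the 9 libraries of the study and were taken by their group labels alone. The other 3 libraries carry a hairpin against IMPDH1 (shIMPDH1) and serve here only to ask whether a difference is shared with knockdown of the sister gene. Huh7 is an established human hepatocellular carcinoma line, and polyadenylated RNA was sequenced from it. In each group, hairpins were delivered in the pLKO.1 lentiviral vector, packaged in HEK293T cells, and infected cells were kept under puromycin as stable pools. The sources used here give neither the hairpin sequences nor how many hairpins were used per gene, so a group may rest on 1 hairpin. The series text calls the replicates biological, but whether the cultures of a group came from separate infections is not stated. All p-values therefore measure only the spread between these samples.

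Inosine monophosphate dehydrogenase oxidises inosine monophosphate to xanthosine monophosphate and commits purine synthesis to guanine nucleotides. GMP synthetase, guanylate kinase and nucleoside diphosphate kinases then carry the product to GTP, while HPRT1 and purine nucleoside phosphorylase recycle guanine and its nucleosides. IMPDH1 and IMPDH2 encode the isozymes, IMPDH2 being the form usually induced in proliferating and malignant cells. Hepatocytes are also the source of most plasma proteins, coagulation and complement factors among them, and Huh7 keeps much of that secretory programme.

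Library totals were 44560837 to 58370328 counts. Levels are in CPM, counts scaled to library size with TMM factors, and 3 counts were worth 0.0519 to 0.0674 CPM. Of 58684 genes in the table, 17396 passed a filter on low counts. The 8 hepatocyte markers were all measured, with summed levels of 25918 to 27282 CPM in shControl and 30375 to 31246 CPM in shIMPDH2, 5 rising and 3 falling. Of the 8 immune markers, PTPRC, CD68, CD3E, CSF1R and TYROBP had 0 to 6 counts in any library. Likewise VWF, KDR, TEK, CLEC4G, STAB2 and EMCN, endothelial markers, had 0 to 3 counts. Other members of these lists were measured, LYZ and CD14 among immune markers and PECAM1 and CDH5 among endothelial ones, and are described below. The measured immune markers summed to 890 to 938 CPM in shControl and 865 to 903 CPM in shIMPDH2. The endothelial sums were 12.3 to 13.5 and 6.80 to 8.01 CPM. Within shControl, replicate 1 stood apart, with a mean chi-square per gene of 5.80 and 6.99 against replicates 2 and 3, which differed from each other by 1.94. Within shIMPDH2 the same measure was 2.09 to 3.93. Values without shControl replicate 1 are given beside list counts that changed more than 1.5-fold, and beside some others. Smaller changes in list counts are mostly not given, as for conjugating enzymes, where 10 rising became 7.

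The target was lowered 2.08-fold. IMPDH2 lies on chromosome 3, positions 49024325 to 49029408, minus strand. Its levels were 226, 227 and 229.6 CPM in shControl and 109, 109.9 and 109.7 CPM in shIMPDH2. The groups did not overlap, and the shIMPDH2 libraries were within 1 CPM of each other. The log2 fold change was -1.05 (SE 0.0246, adjusted p = 4.26e-22). This and every adjusted p below come from edgeR's quasi-likelihood test, adjusted by Benjamini-Hochberg over the 17396 genes. In shIMPDH1 the gene was at 271, 274 and 277 CPM, above every control library, so the difference from that group was wider, at -1.32 (SE 0.0245, adjusted p = 1.85e-24). IMPDH1, the isozyme that was not targeted, was at 62.9, 62.5 and 62.6 CPM in shControl and 66.4, 71.5 and 73.1 CPM in shIMPDH2. All shIMPDH2 libraries were above all controls, and the log2 fold change was 0.17 (SE 0.0354, adjusted p = 0.000486). On these values the transcripts of both isozymes together came to less in shIMPDH2 than in shControl.

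Among the remaining genes that make, recycle or move guanine nucleotides, 1 enzyme changed as much as the target did. GDA, guanine deaminase, which turns guanine into xanthine and so removes it from salvage (chromosome 9, positions 72114595 to 72257193, plus strand), was at 40.4, 37.8 and 38.2 CPM in shControl and 18.7, 17.3 and 17.8 CPM in shIMPDH2. The groups were far apart, and its log2 fold change was -1.11 (SE 0.0431, adjusted p = 2.46e-17). It was also lower than in shIMPDH1, where it was at 42.1, 41.9 and 43.8 CPM, by a log2 difference of -1.25 (SE 0.043, adjusted p = 1.21e-18). DGUOK, the mitochondrial deoxyguanosine kinase, was at 46.7, 47.9 and 51.3 CPM in shControl and 38.8, 39.2 and 37.9 CPM in shIMPDH2, again without overlap, and fell by 0.33 on the log2 scale (adjusted p = 6.05e-08). SLC29A2, an equilibrative nucleoside transporter, was at 70.97, 67.9 and 63.6 CPM in shControl and 84.9, 84.98 and 84.8 CPM in shIMPDH2 and rose (0.33, SE 0.0345, adjusted p = 1.35e-08). In shIMPDH1 this transporter was higher still, at 123, 119.7 and 116 CPM, and the direct difference was -0.49 (SE 0.0333, adjusted p = 1.85e-12). 10.3% of its exon bases are shared with a gene on the opposite strand, and whether the counting used strand is not known here.

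**Figure D1:**
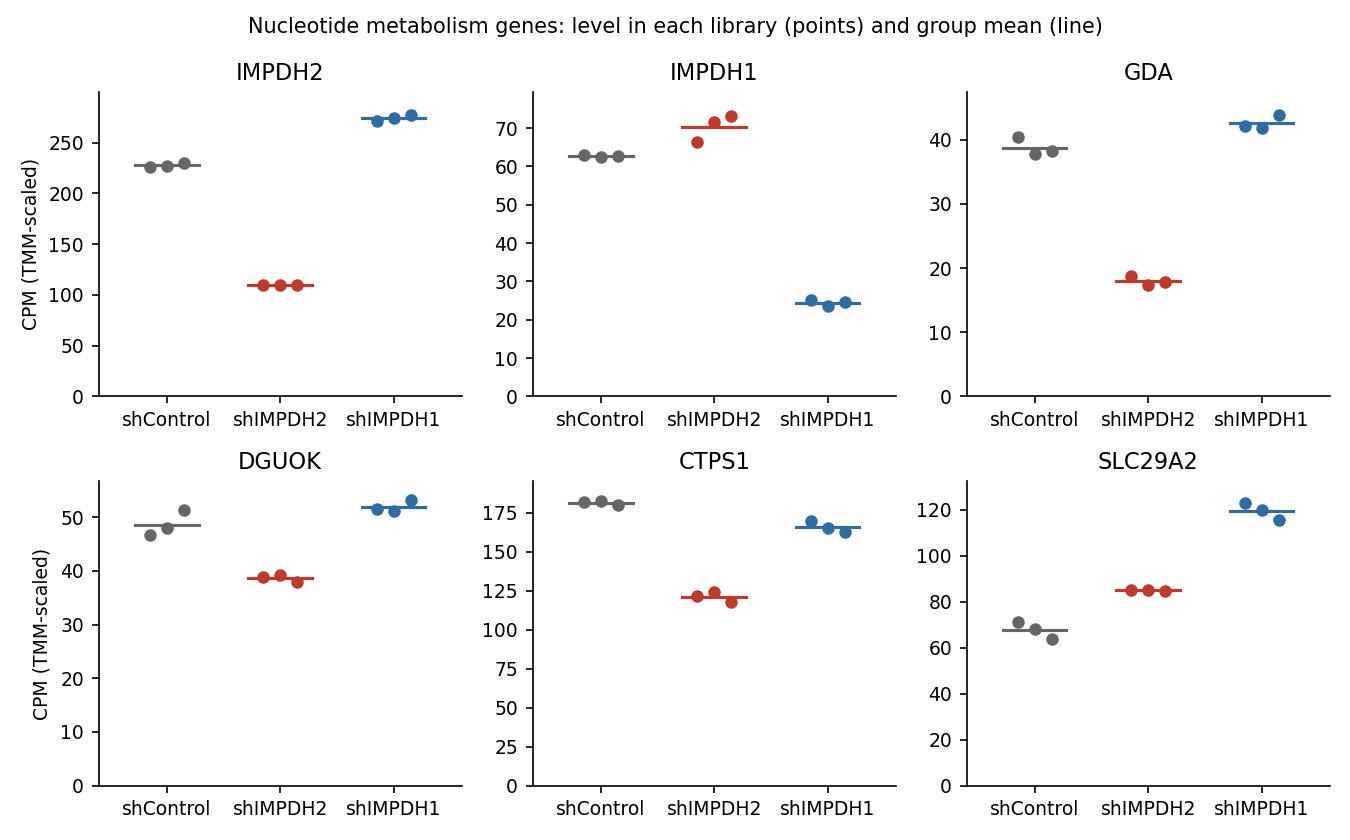
Levels of 6 nucleotide metabolism genes in CPM (vertical axes, from 0) in each of the 9 libraries (points) by group, with the group mean as a line. IMPDH2, GDA, DGUOK and CTPS1 were lowest in all 3 shIMPDH2 libraries, while SLC29A2 in shIMPDH2 lay between shControl and shIMPDH1.

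Smaller shifts covered the rest of this list. GMPR2, which reduces GMP back to IMP (0.21, adjusted p = 2.07e-06), NME6, a nucleoside diphosphate kinase (0.25, adjusted p = 3.82e-05), and ADAL, an adenosine deaminase-like enzyme (0.19, adjusted p = 0.0367), rose. PNP, purine nucleoside phosphorylase, fell slightly (-0.09, adjusted p = 0.0237), a call lost without shControl replicate 2, without shControl replicate 3 and without shIMPDH2 replicate 1 (adjusted p = 0.117, 0.0745 and 0.110), and with library totals only (0.0564). The call of ADAL was lost without shControl replicate 2 or 3 (adjusted p = 0.133 and 0.158), without shIMPDH2 replicate 1 or 3 (0.0828 and 0.0901) and with DESeq2 (0.0767). GMPS, GMP synthetase, the step right after IMPDH, was at 83.9, 80.01 and 84.8 CPM in shControl and 84.5, 81.8 and 83.2 CPM in shIMPDH2. Those ranges overlapped, and the log2 fold change was 0.01 (SE 0.0302, adjusted p = 0.906). HPRT1, the guanine salvage enzyme, had a log2 difference of -0.10 (adjusted p = 0.051), and GUK1, guanylate kinase, one of -0.07 (adjusted p = 0.0524). NME1 (-0.05), NME2 (-0.32), NME3 (-0.07), NME4 (-0.05), GMPR (-0.29), NT5C2 (0.003), XDH (0.02), SAMHD1 (-0.07) and SLC29A1 (0.06) were not called either. In all, 5 of 21 measured members rose, 4 fell and 12 did neither, the median log2 fold change being -0.05. SLC28A3 had no counts. Over all 17396 genes, 38.4% were called, so the share of this list, 42.9%, was near the background.

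The pathway that leads to IMP and the adenine branch moved little, with 5 of 20 members rising (1 without shControl replicate 2 and 3 without shIMPDH2 replicate 3) and 2 falling. PPAT, which starts the pathway, rose (0.17), as did PRPS2 (0.65), a PRPP synthetase at 1.27 CPM in shControl whose call was lost without shControl replicate 2 (adjusted p = 0.0605). ADSS, adenylosuccinate synthase, which also consumes GTP, was at 80.6, 81.1 and 83.96 CPM in shControl and 72.1, 67.1 and 70.5 CPM in shIMPDH2 and fell by 0.23 (adjusted p = 2.44e-06). Among 17 genes listed for GTP-using enzymes and the pathways around them, not all of which take GTP themselves, 6 rose, or 3 without shIMPDH2 replicate 2, and 2 fell. They include GCH1, the entry enzyme of tetrahydrobiopterin synthesis (0.16, adjusted p = 0.00208), RNGTT, the mRNA capping enzyme (0.12, adjusted p = 0.0101, and 0.0616 without shIMPDH2 replicate 2), and SUCLG1, a subunit of succinyl-CoA ligase (-0.18, adjusted p = 1.69e-05). Of 22 pyrimidine and deoxynucleotide genes, 5 rose and 6 fell. The shares called were 35% for the IMP and adenine list, 47.1% for the GTP list and 50% for the pyrimidine list. Over all genes 38.4% were called, 18.6% rising and 19.9% falling. CTPS1, CTP synthase, an enzyme that GTP activates (chromosome 1, positions 40979335 to 41012565, plus strand), was at 182, 183 and 179.8 CPM in shControl and 122, 124 and 117 CPM in shIMPDH2 with no overlap. The log2 fold change was -0.58 (SE 0.0268, adjusted p = 7.63e-16), and the level was below that of shIMPDH1 too (-0.45, adjusted p = 1.4e-13). CMPK1, a UMP and CMP kinase, rose (0.23, adjusted p = 1.06e-07), and RRM2, the small ribonucleotide reductase subunit, fell (-0.14, adjusted p = 4.1e-05).

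Across the transcriptome, changes were numerous and mostly small. At an adjusted p under 0.05, 3229 genes rose (18.6%) and 3458 fell (19.9%). The median called gene rose 1.155-fold or fell 1.195-fold, and the smallest called change was 0.0576 on the log2 scale. Falls outnumbered rises as the size grew. Past 1.5-fold there were 419 rising (2.41%) and 753 falling genes (4.33%), past 2-fold 129 (0.742%) and 333 (1.91%), and past 4-fold 10 (0.0575%) and 65 (0.374%). All 3 knockdown libraries lay above all controls for 23% of genes, below them for 23.7%, and overlapped them for 53.3%. Calls depended on level. Of 5 equal groups of genes by mean level, the lowest had 11.6% called and the highest 56.8%, and most changes over 2-fold (273 of 462, themselves 2.66% of all genes) were in the lowest. Lists of abundant transcripts are therefore called often, which bears on each list count above and below. The share over all genes, used as background for each list, is 18.6% rising and 19.9% falling against shControl, and it is not matched for level. Between the knockdowns it is 21.7% higher and 22.2% lower. Shares called were near the 38.4% of all genes for the IMP pathway (35%), cell death (37%), histone (34.8%), fatty acid oxidation (41.7%) and cytochrome P450 (41.7%) lists. Without shControl replicate 1, 6146 genes were called in place of 6687.

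**Figure D2:**
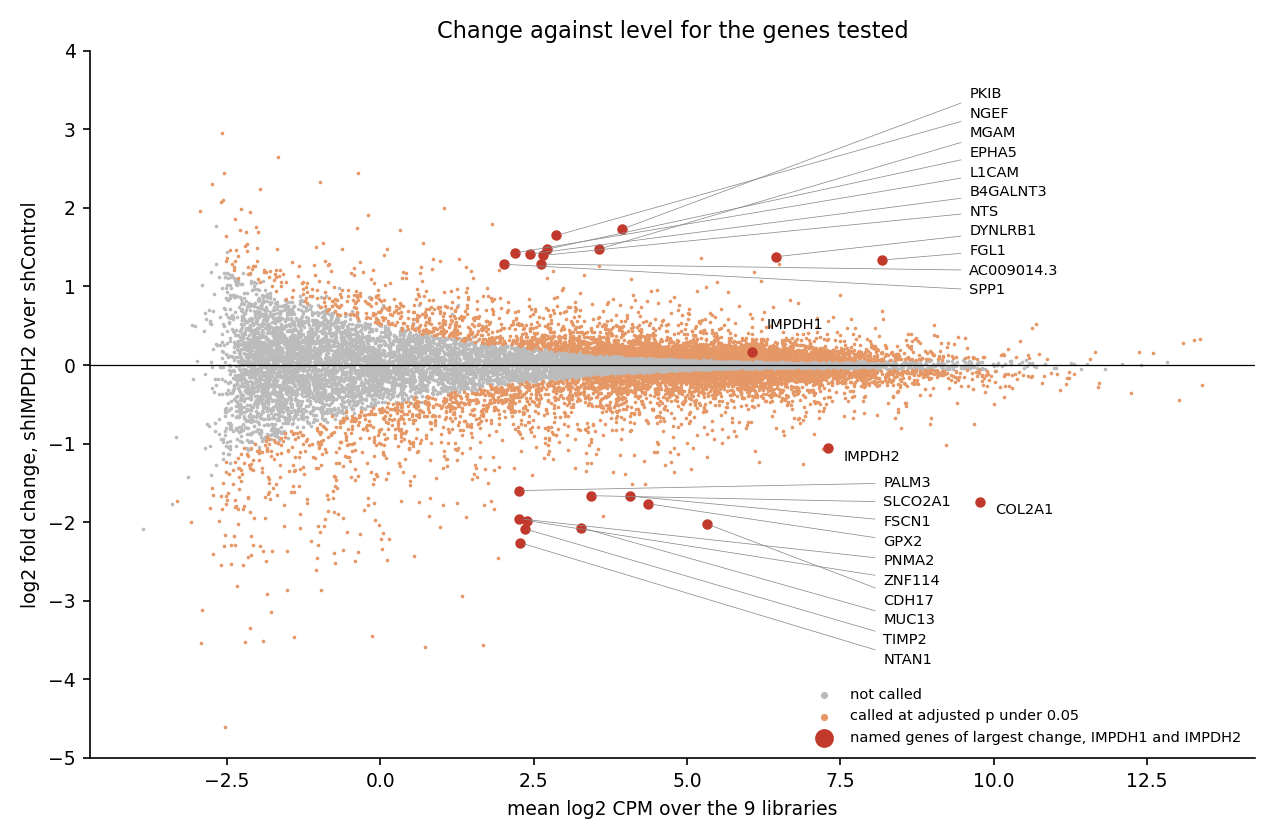
Log2 fold change of shIMPDH2 over shControl (vertical axis) against mean log2 CPM (horizontal axis) for the 17396 genes tested. The mean is over the 6 libraries of shControl and shIMPDH2, although the axis label names 9. Called genes are in orange and named genes in red. Falls beyond 2-fold (333 genes) were more frequent than rises (129), and IMPDH2 lies at -1.05.

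Largest among the rising genes at a mean log2 CPM of 2 or more were transcripts of signalling and surface proteins. PKIB, an inhibitor of protein kinase A (chromosome 6, positions 122471917 to 122726373, plus strand), was at 7.95, 8.87 and 8.38 CPM in shControl and 29.1, 26.96 and 27.6 CPM in shIMPDH2, and its log2 fold change was 1.73 (SE 0.0566, adjusted p = 6.52e-19). NGEF, a guanine nucleotide exchange factor that acts below ephrin receptors (4.103 to 12.9 CPM, 1.65), and EPHA5, an ephrin receptor (3.93 to 10.9 CPM, 1.47), rose as well. L1CAM, a neural adhesion molecule (1.43), B4GALNT3, a glycosyltransferase (1.41), NTS, the neurotensin precursor (1.40), DYNLRB1, a dynein light chain (1.38), and SPP1, osteopontin (1.28), belong to the same group, as does the transcript AC009014.3 (1.28). At a higher level was FGL1, a hepatocyte-secreted fibrinogen-like protein (chromosome 8, positions 17864380 to 17910365, minus strand), at 178, 183 and 187 CPM in shControl and 453, 463 and 467 CPM in shIMPDH2. The groups did not come near each other, and its log2 fold change was 1.34 (SE 0.0256, adjusted p = 5.49e-24).

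Among genes at a mean log2 CPM of 2 or more, NTAN1, an amidase of the N-degron pathway (chromosome 16, positions 15037853 to 15056079, minus strand), fell furthest. It was at 10.5, 9.89 and 11.2 CPM in shControl and 2.07, 2.05 and 2.47 CPM in shIMPDH2, which amounts to -2.26 (SE 0.0882, adjusted p = 2.55e-17) on the log2 scale, with 10.1% of its exon bases shared with the opposite strand. COL2A1, the collagen of cartilage, was the abundant exception among strongly falling genes (chromosome 12, positions 47972965 to 48004554, minus strand). It was at 1642, 1585 and 1567 CPM in shControl and 470.0, 484 and 477 CPM in shIMPDH2. These levels did not overlap, and the log2 fold change was -1.74 (SE 0.0248, adjusted p = 7.71e-27), one of the 6 largest falls in CPM of any transcript. TIMP2, a metalloproteinase inhibitor (-2.08), ZNF114, a zinc finger protein (-1.98), PNMA2, a neuronal antigen (-1.96), GPX2, a glutathione peroxidase of gut epithelium (-1.77), FSCN1, the actin-bundling protein fascin (-1.67), SLCO2A1, a prostaglandin transporter (-1.66), and PALM3, a paralemmin (-1.60), fell as well, as did MUC13 and CDH17, described below.

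Direct comparison with shIMPDH1 separates these genes. In that contrast 7648 of 17396 genes were called (44%), 3783 higher (21.7%) and 3865 lower (22.2%) in shIMPDH2. FSCN1 was at 30.6, 29.1 and 30.2 CPM in shControl, 8.37, 9.69 and 10.3 in shIMPDH2 and 41.4, 42.3 and 38.6 in shIMPDH1. It was the lowest in shIMPDH2 and differed from shIMPDH1 by -2.11 (SE 0.0565, adjusted p = 4.67e-21). L1CAM was at 2.76, 2.58 and 2.94, 7.26, 7.26 and 7.67 and 0.764, 0.999 and 0.634 CPM in the same order, so that the knockdowns lay on opposite sides of the control, with a difference of 3.21 (SE 0.129, adjusted p = 3.16e-17). TRIM2, a ubiquitin ligase, was at 25.6, 25.8 and 25.4, 9.81, 10.2 and 9.46 and 25.1, 24.2 and 24.3 CPM. It was low in shIMPDH2 alone, -1.32 from shIMPDH1 (adjusted p = 7.65e-18). PKIB (2.06), MGAM (1.73), FGL1 (1.66) and the collagen gene COL16A1 (1.48) were higher than in both other groups. NTAN1 (-2.16), COL2A1 (-1.53), CDH17 (-1.45) and PNMA2 (-1.38) were lower than in both.

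Other large changes were close in size in the knockdowns or not called between them. TIMP2 was at 2.46 CPM in shIMPDH2 and 2.75 in shIMPDH1, against 10.4 in shControl, a difference between the knockdowns of -0.16 (SE 0.105, adjusted p = 0.228). ZNF114 (-0.22, adjusted p = 0.107), PALM3 (0.33, adjusted p = 0.0803) and NTS (0.09, adjusted p = 0.347) were not called between them either. DYNLRB1 was at 139, 144 and 141 CPM in shIMPDH2 and 131, 138 and 134 in shIMPDH1, against 53.6, 54.7 and 54.9 in shControl, and the knockdowns differed slightly but were called, at 0.08 (SE 0.0273, adjusted p = 0.0254). Both knockdowns are set against the same 3 control libraries, so a departure of those libraries would appear in both.

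Many genes of intestinal epithelium, some of which hepatocellular lines express, fell, and 6 of them fell more than 4-fold. CDX2 is the homeobox factor that specifies intestinal identity, SI and LCT are brush border sugar-digesting enzymes, NOX1 is the NADPH oxidase of colon, GUCY2C is the receptor for guanylin that makes cyclic GMP, and CDH17 and MUC13 are an adhesion protein and a membrane mucin. Of 31 measured members, 19 fell, 7 rose and 5 did neither. Their median log2 fold change was -0.53, beside 0.0057 over all genes, of which 19.9% fell and 18.6% rose. The list was drawn up with earlier results of these data known, so its counts are no independent test. Leaving out any 1 library, 18 or 19 fell and 5 to 7 rose. Among 13 falling genes with a RefSeq window, 6 held TTTAT, the core that CDX factors recognise, and the bases before the start sites of 3 of those 6 are shown, CDX2 itself included. They were chosen for holding it. MUC13, which fell further than CDX2, has a window without it, and CDH17, GUCY2C and LCT had no entry. They are RefSeq sequence on GRCh38.p14, each 250 bases 5′ to 3′ on the minus strand, with capitals marking TTTAT and CAAAGT (a half-site of HNF4), searched on both strands. The windows are chrX:100874360-100874609 for NOX1, chr3:165078497-165078746 for SI and chr13:27969316-27969565 for CDX2.
NOX1: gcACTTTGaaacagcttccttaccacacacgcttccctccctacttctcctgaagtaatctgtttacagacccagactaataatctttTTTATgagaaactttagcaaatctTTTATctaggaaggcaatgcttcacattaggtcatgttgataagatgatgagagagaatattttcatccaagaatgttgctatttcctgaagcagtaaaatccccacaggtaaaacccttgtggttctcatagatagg
SI: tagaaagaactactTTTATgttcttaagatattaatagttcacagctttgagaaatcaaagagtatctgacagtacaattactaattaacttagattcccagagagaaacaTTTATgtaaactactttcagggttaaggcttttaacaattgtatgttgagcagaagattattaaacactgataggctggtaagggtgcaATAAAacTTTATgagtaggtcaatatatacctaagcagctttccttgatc
CDX2: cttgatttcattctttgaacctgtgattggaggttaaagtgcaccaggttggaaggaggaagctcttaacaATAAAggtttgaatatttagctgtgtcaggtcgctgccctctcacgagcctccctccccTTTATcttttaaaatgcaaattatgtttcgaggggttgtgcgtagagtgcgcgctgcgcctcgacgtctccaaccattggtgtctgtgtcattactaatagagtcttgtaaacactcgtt
In windows of 300 bases that also take in the first 50 transcribed bases, TTTAT was present for 6 of the 13 falling genes with a window (46.2%), and for 22.5% of the 10892 tested genes and 34.9% of all 35116 windows. CAAAGT was present for 4 of 13 (30.8%), 8.39% and 11.9%. A match describes the letters only and names no bound factor.

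NOX1, with its upstream bases shown above, was at 10.4, 10.5 and 11.3 CPM in shControl and 0.8499, 1.12 and 0.759 CPM in shIMPDH2. All 3 knockdown libraries lay far below the controls, and the difference on the log2 scale was -3.56 (SE 0.115, adjusted p = 4.77e-19). GUCY2C (chromosome 12, positions 14612632 to 14696585, minus strand) was at 7.29, 6.45 and 6.83 CPM in shControl and 0.739, 0.954 and 0.9904 CPM in shIMPDH2, and its log2 fold change was -2.94 (SE 0.121, adjusted p = 7.01e-17). SI was at 2.36, 1.75 and 2.11 CPM in shControl and 0.3695, 0.498 and 0.548 CPM in shIMPDH2, which gave -2.13 (SE 0.218, adjusted p = 9.5e-09). LCT, lactase (2.27 to 0.487 CPM, -2.21), and the enterocyte marker ALPI, intestinal alkaline phosphatase (0.707 CPM to 0.0596 CPM, the latter near the level of 3 counts), were low in every group. CDH17 (chromosome 8, positions 94127171 to 94217303, minus strand) was better expressed, at 80.8, 80.8 and 82.4 CPM in shControl and 20.2, 20.3 and 19.4 CPM in shIMPDH2. That separation was wide relative to the spread, the log2 fold change being -2.03 (SE 0.0353, adjusted p = 7.19e-25). MUC13 was at 19.03, 20.2 and 20.3 CPM in shControl and 4.42, 4.36 and 5.42 CPM in shIMPDH2, or -2.07 (SE 0.0711, adjusted p = 1.82e-18). CDX2, the homeobox factor, was at 41.2, 40.6 and 38.04 CPM in shControl and 17.02, 21.5 and 19.3 CPM in shIMPDH2. It fell by about the same factor as IMPDH2 itself (-1.06, SE 0.0553, adjusted p = 1.36e-14). Whether CDX2 acts on the other genes named here was not tested. Enterocyte genes did not fall as a whole. MGAM, maltase-glucoamylase, next to SI in function, rose from 7.19, 6.17 and 8.04 to 20.4, 18.7 and 20.1 CPM (1.48, SE 0.0714, adjusted p = 2.35e-15). VIL1, villin of the brush border, rose slightly (0.12, adjusted p = 0.000154), with 44.0% of its exon bases shared with the opposite strand, as did A1CF, the APOB mRNA editing cofactor (0.24).

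**Figure D3:**
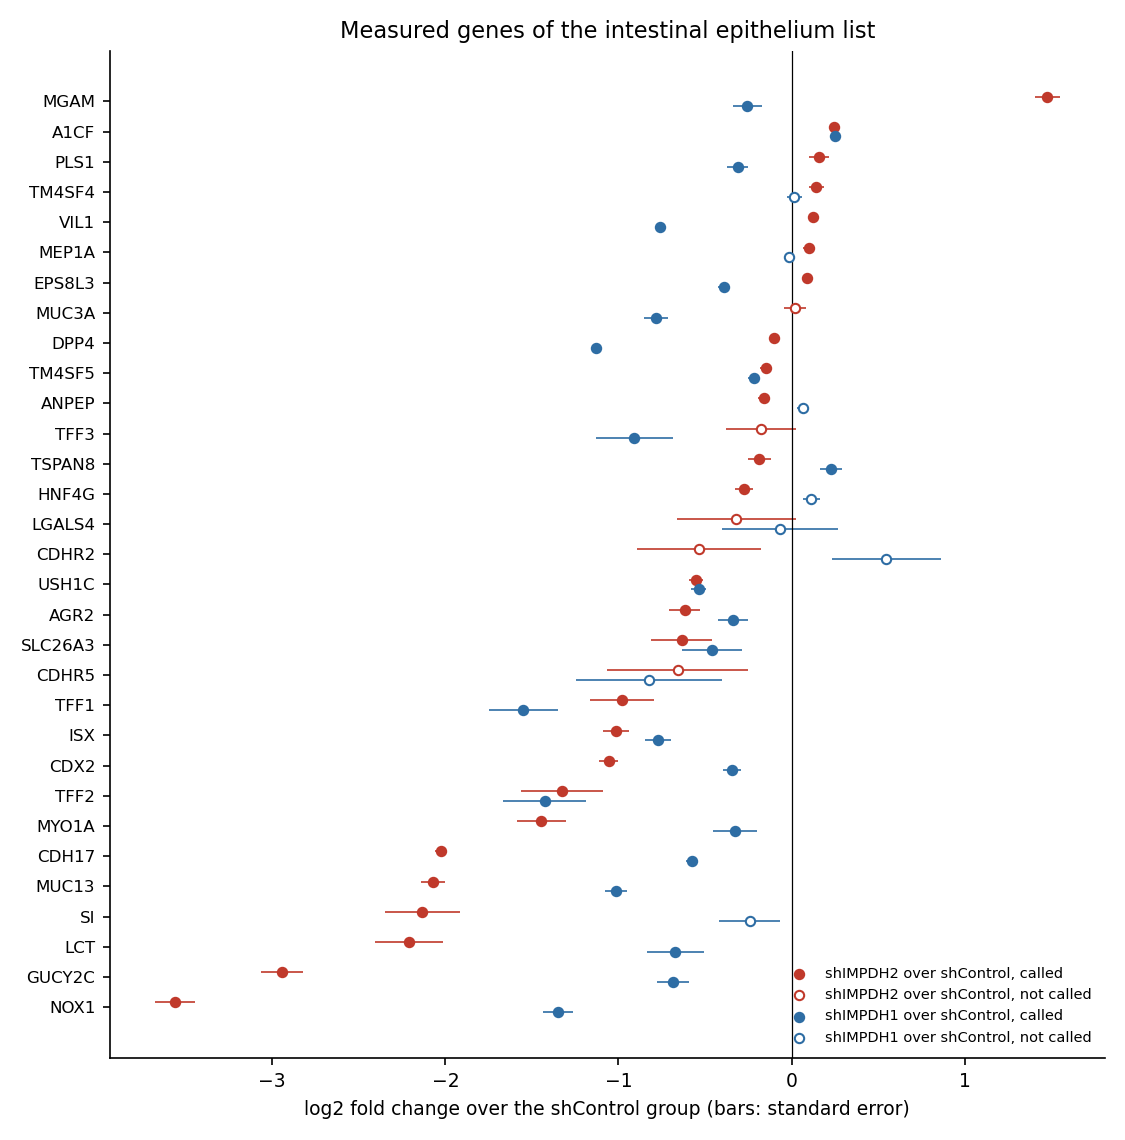
Log2 fold change over shControl (horizontal axis, bars 1 standard error) of the 31 measured intestinal epithelium genes (rows), for shIMPDH2 in red and shIMPDH1 in blue, filled where called. NOX1, GUCY2C, LCT, SI, MUC13 and CDH17 lie at -2 or below in shIMPDH2, and MGAM at 1.48.

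Against shIMPDH1, 14 of the 31 genes were lower in shIMPDH2, 10 were higher and 7 were not called. NOX1 was at 4.65, 3.98 and 4.06 CPM in shIMPDH1, between the other groups, and lower in shIMPDH2, at a log2 difference of -2.21 (SE 0.133, adjusted p = 1.66e-13). GUCY2C (-2.26), SI (-1.89), LCT (-1.54), CDH17 (-1.45), MUC13 (-1.06) and CDX2 (-0.71) also were lower in shIMPDH2. VIL1 (0.88, adjusted p = 7.15e-21) and DPP4, dipeptidyl peptidase 4 (1.03, adjusted p = 2.66e-20), were higher. In shIMPDH1 against shControl, where 43.4% of all genes were called, 22.8% lower and 20.6% higher, 21 of the 31 fell and 2 rose. That comparison shares its control libraries with the one above.

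Genes of cyclic GMP signalling and of NADPH oxidases, GUCY2C and NOX1 included, followed no single direction. PDE5A, a cyclic GMP phosphodiesterase, was at 3.79, 4.25 and 3.89 CPM in shControl and 8.22, 6.33 and 6.89 CPM in shIMPDH2 and rose (0.84, SE 0.105, adjusted p = 2.57e-07). PRKG1, the cyclic GMP-dependent kinase, was at 0.886 CPM in shControl and 0.459 CPM in shIMPDH2 and fell (-0.95, SE 0.228, adjusted p = 0.00151). Of 13 measured cyclic GMP genes 2 rose and 4 fell, which became 1 and 2 without shControl replicate 1. Without either of the other control libraries, with DESeq2 and without a filter 1 rose, and without shIMPDH2 replicate 2 only 2 fell. Of 10 measured genes of NADPH oxidases, DUOX2 (-0.70), DUOXA2 (-0.97, 28.6% of exon bases shared) and CYBA (-0.19) fell with NOX1, and 1 rose, or 2 without shIMPDH2 replicate 3.

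Biliary and progenitor genes fell too, 13 of 17 measured, with 2 rising and a median of -0.23. Falls were also frequent in shIMPDH1 against the same controls, 10 of the 17, with 3 rising and a median of -0.27. Compared directly, 8 were lower in shIMPDH2 than in shIMPDH1 and 5 higher. EPCAM, an adhesion protein of epithelial progenitors, was at 29.2, 30.3 and 30.8 CPM in shControl and 12.99, 13.5 and 12.2 CPM in shIMPDH2, and the groups were clearly separated (-1.22, SE 0.0478, adjusted p = 2.69e-17). KRT19, a keratin of bile ducts, was at 26.3, 27.1 and 25.2 CPM in shControl and 12.2, 11.6 and 11.5 CPM in shIMPDH2 (-1.15, SE 0.0506, adjusted p = 2.83e-16). ANXA4, an annexin of secretory epithelium and the most abundant of the genes named here, was at 413, 439.7 and 424 CPM in shControl and 260.0, 267 and 271 CPM in shIMPDH2 (-0.68, SE 0.0259, adjusted p = 1.69e-17). The osteopontin gene SPP1 went the other way (1.28). Compared with shIMPDH1, EPCAM (-0.75) was lower, and KRT19 was not called (0.10, adjusted p = 0.159). Of 26 cadherin and junction genes 13 fell and 4 rose. Against the same controls 15 of the 26 fell and 2 rose in shIMPDH1. Compared directly, 15 were higher in shIMPDH2 than in shIMPDH1 and 5 lower. JUP, plakoglobin (-0.45), CGN, cingulin (-0.36), and CLDN6, a fetal claudin (-0.48), fell, and CLDN1 rose (0.34).

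Genes for secreted liver proteins moved mainly upward. Coagulation and fibrinolysis factors rose in 16 of 24 cases and fell in 4, with a median of 0.18, and 15 or 16 rose with any 1 library left out. F13B, a subunit of the clot-stabilising factor XIII, was at 6.49, 8.51 and 8.02 CPM in shControl and 18.2, 18.6 and 18.3 CPM in shIMPDH2 (1.26, SE 0.0685, adjusted p = 3.17e-14). PLG, plasminogen, was at 16.4, 17.8 and 18.1 CPM in shControl and 28.8, 30.9 and 30.8 CPM in shIMPDH2 (0.79, SE 0.0483, adjusted p = 3.4e-13). SERPIND1, heparin cofactor II, was at 221, 229 and 233 CPM in shControl and 356, 366 and 374 CPM in shIMPDH2 (0.68, SE 0.0276, adjusted p = 5.33e-17). PROC, protein C, rose by 0.46, and in none of these did the groups overlap. Against shIMPDH1, 17 of the 24 were higher and 2 lower, among them F13B (0.55), PLG (0.37), SERPIND1 (0.29) and PROC (0.36). In shIMPDH1 against the same controls 6 rose and 12 fell.

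Complement gave a like count, with 15 of 25 rising, 5 falling and a median of 0.25. CFI, the protease factor I, was at 108, 116 and 116 CPM in shControl and 170.3, 173 and 169.8 CPM in shIMPDH2, and every knockdown library exceeded every control (0.59, SE 0.0311, adjusted p = 1.32e-14). MBL2, mannose-binding lectin, rose from 5.58 to 11.03 CPM (0.98). C4B rose from 2.48 to 5.75 CPM (1.21), but its reads cannot be kept apart from those of its near-identical neighbour C4A. SERPING1, the C1 inhibitor, fell (-0.33). Compared with shIMPDH1, 18 of 25 were higher and 1 lower, and shIMPDH1 itself had 5 rising and 9 falling against the shared controls. CFI differed by 0.66 (adjusted p = 1.1e-15).

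Other plasma proteins rose in 13 of 25 cases and fell in 6. In absolute terms the 6 largest gains of all genes were AFP, ALB, APOB, FN1, APOA2 and SERPINA1. ALB, albumin, was at 8390.1, 8904 and 9109 CPM in shControl and 10630.1, 11055 and 11154 CPM in shIMPDH2, a non-overlapping rise of 0.31 (SE 0.0285, adjusted p = 9.08e-10). APOB, the structural protein of low-density lipoprotein, rose by 0.28, APOA2 of high-density lipoprotein by 0.52, and SERPINA1, alpha-1 antitrypsin, by 0.16. ALB (0.23), APOB (0.15) and APOA2 (0.19) were higher than in shIMPDH1 as well, whereas SERPINA1 was not called (0.06, adjusted p = 0.0882). CP, ceruloplasmin (0.61, 19.4% of exon bases shared), AHSG, fetuin A (0.48), and AGT, angiotensinogen (0.35), rose. HAMP, hepcidin, the iron-regulating hormone, fell (-0.38).

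Lipoprotein genes were split, with 7 of 21 rising and 6 falling. MTTP, which loads lipid onto APOB, fell (-0.40), as did PLTP, the phospholipid transfer protein (-0.46). Cholesterol synthesis rose in 13 of 24 members and fell in 4, and the count rising ranged from 7 to 15 over the alternatives tried. DHCR7, a late reductase of the pathway, rose (0.15), and TM7SF2 fell (-0.45). Against shIMPDH1, 13 of the 24 were lower in shIMPDH2 and 3 higher, and against the shared controls 15 rose and 2 fell in shIMPDH1.

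Transcription factors of hepatocytes were called in both directions, 9 of 27 rising and 10 falling. NR1H4, the bile acid receptor FXR, was at 162, 163 and 172 CPM in shControl and 232, 225 and 231 CPM in shIMPDH2, without overlap (0.47, SE 0.0275, adjusted p = 1.53e-13), and above shIMPDH1 by 0.78 (adjusted p = 2.72e-18). FOXA1, a pioneer factor (-0.30), NR5A2, the regulator LRH-1 (-0.23), and TBX3 (-0.40) fell. Of 20 fetal liver and liver cancer markers, 12 fell and 5 rose. Against the same controls 10 rose and 4 fell in shIMPDH1, and 13 of the 20 were lower in shIMPDH2 than in shIMPDH1 and 4 higher. The summed level of the list was 15682 to 16723 CPM in shControl, 17813 to 18195 in shIMPDH2 and 19600 to 20017 in shIMPDH1. AFP, alpha-fetoprotein, was at 8957, 9579 and 9718 CPM in shControl and 11653, 11985 and 11869 CPM in shIMPDH2 and rose (0.33, SE 0.0271, adjusted p = 1.5e-10). MDK, the growth factor midkine, was at 259, 264 and 267 CPM in shControl and 152, 171 and 170.5 CPM in shIMPDH2 and fell (-0.68, SE 0.0331, adjusted p = 2.81e-15). It was higher in shIMPDH1, so that the knockdowns differed by -1.003 (SE 0.033, adjusted p = 4.17e-19). IGF2 (-0.50) and GOLM1, a Golgi membrane protein (-0.42), fell, and AFM, afamin, rose (0.96).

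**Figure D4:**
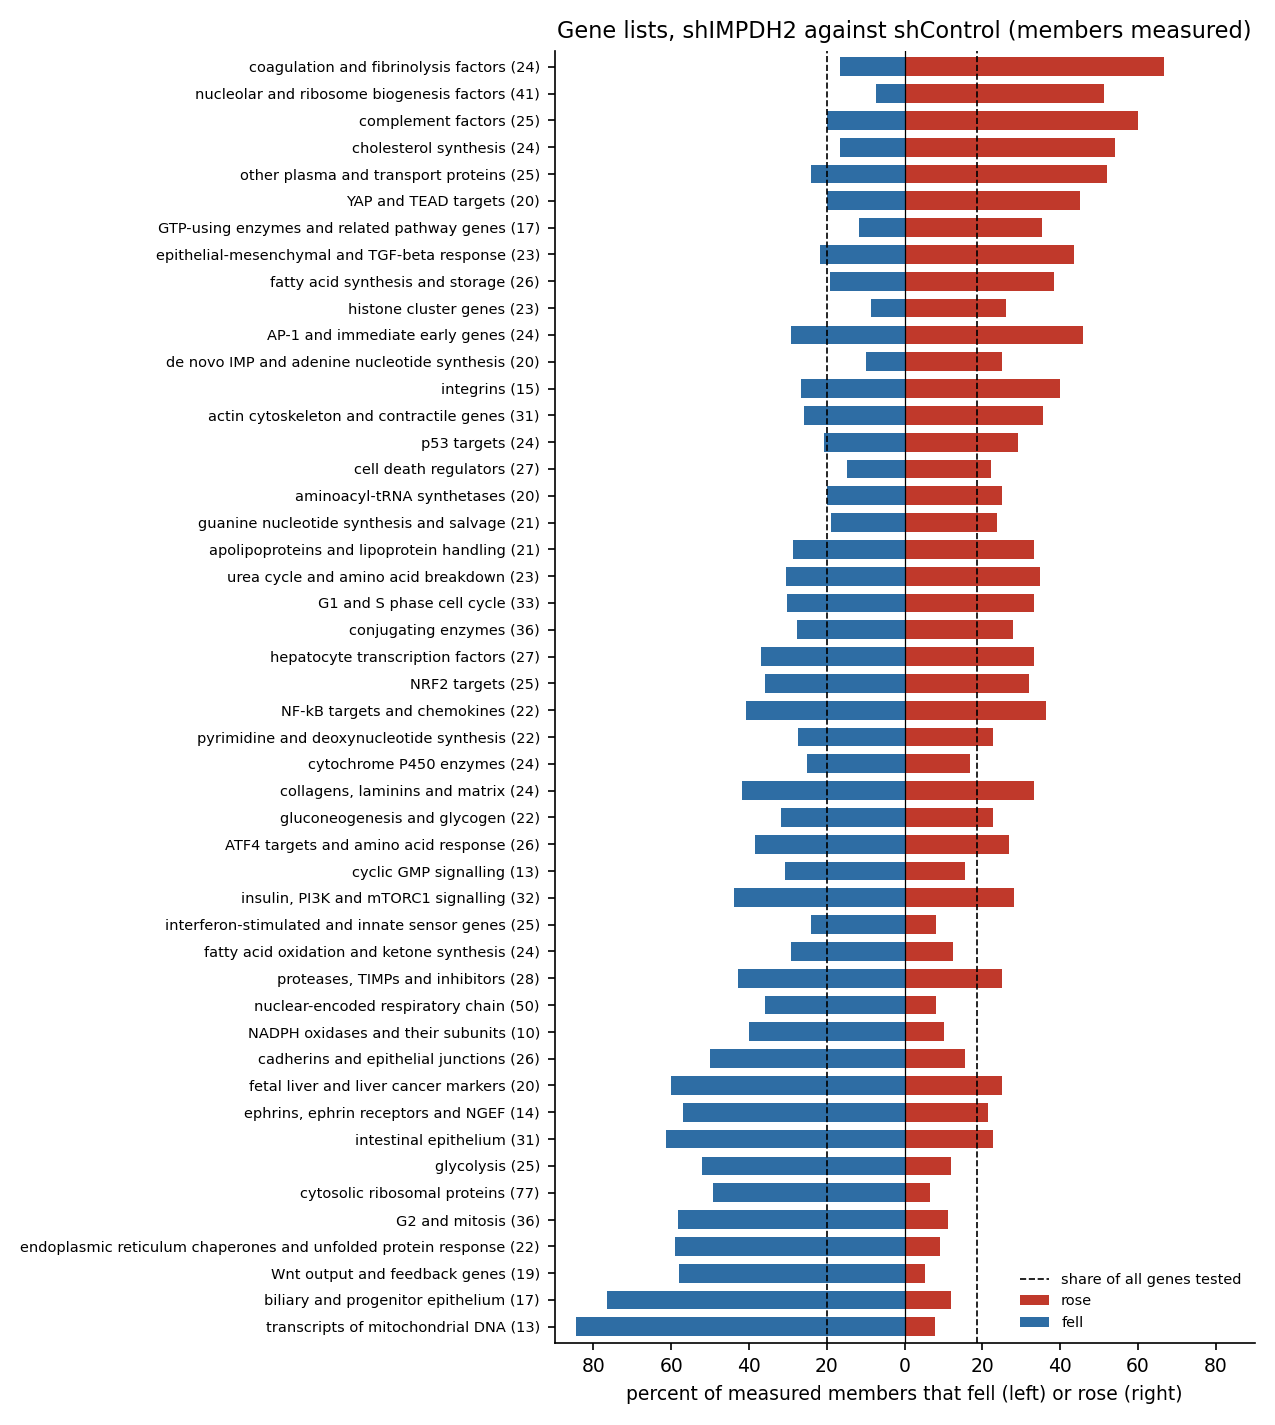
Percent of the measured members of each pathway list (rows, number measured in parentheses) that fell (left, blue) or rose (right, red) in shIMPDH2 against shControl, with dashed lines at the shares of all genes tested, 19.9% and 18.6%. Coagulation and complement factors have the highest shares rising, 66.7% and 60%, and transcripts of mitochondrial DNA and biliary genes the highest shares falling.

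Intermediary metabolism shifted modestly. Glycolysis genes fell in 13 of 25 cases and rose in 3, and 8 to 14 fell over the alternatives tried, 8 without shControl replicate 2 or shIMPDH2 replicate 1. PFKFB3, which makes the activator of phosphofructokinase, was at 179, 172 and 173 CPM in shControl and 115, 115 and 118 CPM in shIMPDH2 (-0.59, SE 0.0266, adjusted p = 5.36e-16), and below shIMPDH1, at -0.22. SLC2A1, a glucose transporter (-0.36), and PKM, pyruvate kinase (-0.22), fell as well. Of 22 genes of gluconeogenesis and glycogen 5 rose and 7 fell, among the latter PC, pyruvate carboxylase (-0.26), and GPT2, alanine aminotransferase (-0.41). In fatty acid synthesis and storage 10 of 26 rose and 5 fell, with ACSL1 (0.33) and ACSL3 (0.21), acyl-CoA synthetases, rising and ELOVL6, an elongase, falling (-0.34). In fatty acid oxidation 3 of 24 rose and 7 fell, ACADM, the medium-chain dehydrogenase, among the latter (-0.26).

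Amino acid and drug metabolism held some larger single changes. MAT1A, the liver methionine adenosyltransferase, was at 12.9, 13.3 and 13.3 CPM in shControl and 21.05, 23.7 and 21.2 CPM in shIMPDH2 and rose (0.74, SE 0.058, adjusted p = 5.91e-11), in a list where 8 of 23 rose and 7 fell. CPS1, the entry enzyme of the urea cycle, fell from 10.4, 11.4 and 11.4 to 8.37, 9.56 and 9.25 CPM (-0.29, adjusted p = 0.00045), and the 32.2, 30.5 and 31.4 CPM of shIMPDH1 made the difference between the knockdowns -1.79 (SE 0.0552, adjusted p = 8.89e-20). SULT1E1, the oestrogen sulfotransferase, was at 4.95, 6.12 and 4.81 CPM in shControl, 2.44, 2.41 and 2.25 in shIMPDH2 and 10.5, 11.6 and 11.99 in shIMPDH1, on opposite sides of the control, with a difference of -2.26 (SE 0.0968, adjusted p = 1.09e-16). GSTA2 (-0.96) and GSTP1 (-0.49), glutathione transferases, fell, within a list of 36 conjugating enzymes where 10 rose and 10 fell. Of 24 cytochrome P450 genes 4 rose and 6 fell. CYP3A5, a drug-oxidising form, fell (-0.92), and CYP24A1, which inactivates vitamin D, was at 0.104 CPM in shControl, near the level of 3 counts, and 0.659 CPM in shIMPDH2.

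Genes of Wnt output and feedback, which take in restraints of the pathway as well as targets and receptors, fell in 11 of 19 cases and rose in 1 (0 without shIMPDH2 replicate 2 or 3), with a median of -0.29, and 9 to 11 fell with 1 library left out. AXIN2, a scaffold of beta-catenin destruction, was at 4.13, 4.17 and 3.35 CPM in shControl and 2.35, 2.47 and 2.13 CPM in shIMPDH2 (-0.75, SE 0.111, adjusted p = 4.25e-06). NKD1, a Dishevelled antagonist, was at 8.65, 8.51 and 9.39 CPM in shControl and 5.16, 4.79 and 4.95 CPM in shIMPDH2 (-0.83, SE 0.0735, adjusted p = 6.37e-10). LGR5, an R-spondin receptor, was at 32.5, 34.02 and 31.2 CPM in shControl and 26.6, 27.5 and 26.2 CPM in shIMPDH2 (-0.29, SE 0.0393, adjusted p = 1.42e-06), and CCND1, cyclin D1, fell by 0.33 (10.3% of exon bases shared). In shIMPDH1 the first 3 lay above control instead, with LGR5 at 76.1, 77.3 and 76.4 CPM, and the knockdowns differed by -1.35 for AXIN2, -1.14 for NKD1 and -1.52 for LGR5 (adjusted p = 3.61e-11, 4.23e-13 and 4.81e-22). Between the knockdowns 8 of the 19 were lower in shIMPDH2 and 5 higher, and in shIMPDH1 against the shared controls 9 rose and 6 fell.

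More actin and contractile genes were called between the knockdowns than between shIMPDH2 and its control. Of 31 actin and contractile genes 11 rose and 8 fell in shIMPDH2, whereas 27 were higher than in shIMPDH1 and 1 lower. Against the same controls 0 of the 31 rose and 27 fell in shIMPDH1, by a median of -0.26. TAGLN, transgelin of contractile cells, was at 53.1, 48.9 and 50.9 CPM in shControl, 106, 104 and 109.8 in shIMPDH2 and 12.6, 12.5 and 12.2 in shIMPDH1. It rose by 1.07 (SE 0.0337, adjusted p = 3.94e-19) and lay above shIMPDH1 by 3.10 (SE 0.041, adjusted p = 1.27e-27), with 11.4% of its exon bases shared. MYL9, a myosin light chain (0.60 and 1.65), and THBS1, thrombospondin 1 (0.90 and 1.46), rose against both groups in the same way. ZYX, zyxin of focal adhesions (0.58), and ACTN1, alpha-actinin (0.47), rose and FLNA, filamin A, fell (-0.29).

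Of 20 targets of YAP and TEAD, 9 rose and 4 fell, and of 23 epithelial-mesenchymal and TGF-beta genes 10 rose and 5 fell. CYR61, a matricellular protein, was at 40.5, 39.2 and 40.2 CPM in shControl and 56.5, 53.5 and 56.03 CPM in shIMPDH2, rising without overlap (0.47, SE 0.0365, adjusted p = 4.38e-11), and at 20.6, 20.4 and 21.96 CPM in shIMPDH1. ANKRD1, a nuclear ankyrin repeat protein, rose (0.58), and MYOF, myoferlin, fell (-0.73). VIM, vimentin (0.40, 24.4% of exon bases shared), and TGFBI, a secreted adhesion protein (0.37), rose. Compared with shIMPDH1, 14 of 20 and 16 of 23 were higher and 2 and 2 lower. In shIMPDH1 itself 15 of each list fell against the same controls, and 1 and 2 rose. Integrins rose in 6 of 15 cases and fell in 4, ITGA5 (0.42) and ITGB8 (2.08 to 0.445 CPM) being examples. Collagens, laminins and matrix genes rose in 8 of 24 cases and fell in 10, with FBN2, fibrillin 2 (1.10), among the former and COL2A1 among the latter. Proteases and their inhibitors rose in 7 of 28 cases and fell in 12, CPXM1, a carboxypeptidase-like protein, falling from 8.75 to 1.597 CPM (-2.46). Of 14 genes of ephrin signalling, which are ephrins, their receptors and the exchange factor NGEF, 3 rose and 8 fell, NGEF and EPHA5 among the former and EPHB2 (1.08 to 0.1903 CPM) among the latter.

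Growth and cell cycle genes included few large changes. CDKN1A, the inhibitor p21, was at 16.9, 17.6 and 16.01 CPM in shControl and 7.502, 8.13 and 8.45 CPM in shIMPDH2 and fell (-1.07, SE 0.0607, adjusted p = 7.15e-14), although MDM2 (0.64) and GDF15 (0.70), other p53 targets, rose. Of 24 p53 targets 7 rose and 5 fell, or 3 without shControl replicate 3 or shIMPDH2 replicate 1 and with DESeq2. SESN3, a sestrin that restrains mTORC1, was at 67.01, 67.5 and 67.7 CPM in shControl and 34.3, 34.8 and 32.4 CPM in shIMPDH2 (-0.99, SE 0.0359, adjusted p = 4.95e-18), and it was lower than in shIMPDH1, at -1.02 (adjusted p = 2.28e-18). Of 32 insulin, PI3K and mTORC1 genes 9 rose and 14 fell. G2 and mitosis genes fell in 21 of 36 cases and rose in 4 (2 without shControl replicate 2 or shIMPDH2 replicate 2 or 3), with a median of -0.10. KIF23, a kinesin of cytokinesis, was at 148, 156 and 155 CPM in shControl and 109, 109 and 108 CPM in shIMPDH2 (-0.49, SE 0.0279, adjusted p = 7.54e-14), and TOP2A, topoisomerase II, fell by 0.26. Between the knockdowns 10 of the 36 were higher and 10 lower. G1 and S phase genes rose in 11 of 33 cases and fell in 10, and regulators of cell death rose in 6 of 27, or 3 without shControl replicate 2, and fell in 4, or 2 with library totals only. Among 23 histone cluster genes, whose copies are near-identical and mostly lack poly(A) tails, 6 rose and 2 fell, H1F0 falling from 138 to 79.97 CPM (-0.79).

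Stress and inflammatory lists were mixed. CXCL8, the chemokine interleukin 8, was at 30.3, 30.7 and 32.8 CPM in shControl and 66.9, 61.8 and 66.3 CPM in shIMPDH2 and rose without overlap (1.06, SE 0.041, adjusted p = 2.37e-17), also above shIMPDH1 (1.17, adjusted p = 2.47e-18). CCL20, another chemokine, was at 267, 273 and 285 CPM in shControl and 217, 201 and 207 CPM in shIMPDH2 and fell (-0.40, SE 0.0296, adjusted p = 1.94e-11). Of 22 NF-kB targets 8 rose and 9 fell, of 24 AP-1 and immediate early genes 11 rose and 7 fell, with EGR1 rising (0.48) and DUSP5 falling (-0.65), and of 25 interferon-stimulated genes 2 rose, or 1 without shIMPDH2 replicate 2, with DESeq2 or without a filter, and 6 fell, ISG20 rising (0.49). Targets of ATF4 rose in 7 of 26 cases and fell in 10. TRIB3, a pseudokinase induced under amino acid stress, rose (0.49), while the serine synthesis enzymes PSAT1 (-0.27) and PHGDH (-0.27) fell. Aminoacyl-tRNA synthetases rose in 5 of 20 cases (8 with library totals only or at a mean CPM of 1 or more) and fell in 4, WARS falling (-0.23). Chaperones of the endoplasmic reticulum fell in 13 of 22 cases and rose in 2, or 1 without shIMPDH2 replicate 2 or 3, CALR, calreticulin (-0.27), and PDIA4, a disulfide isomerase (-0.26), among the former. NRF2 targets rose in 8 of 25 cases and fell in 9, with ME1, the cytosolic malic enzyme, rising (0.33, adjusted p = 5.21e-09).

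Ribosomal protein genes fell in 38 of 77 cases and rose in 5 (1 without shControl replicate 1 and 2 without shIMPDH2 replicate 2 or 3), by a median of -0.07. Relative to shIMPDH1, 71 of the 77 were lower and 0 higher, by a median of -0.23. In shIMPDH1 against the same controls 64 rose and 1 fell, by a median of 0.14. Reads of these genes can be split among pseudogenes. RPS12 was at 1026, 1060.4 and 1041 CPM in shControl and 783, 872 and 804 CPM in shIMPDH2 (-0.35, SE 0.0309, adjusted p = 7.23e-10) and RPL15, which rose, at 0.22. Nucleolar and ribosome biogenesis factors rose in 21 of 41 cases and fell in 3, by a median of 0.06. Over the alternatives tried 11 to 21 rose, 15 without shControl replicate 1 and 13 without shControl replicate 2. The rise was shared with shIMPDH1, where 28 of the 41 rose and 1 fell against the same controls, by a median of 0.14. Compared directly, 21 were lower in shIMPDH2 than in shIMPDH1 and 4 higher. TAF1C, a subunit of the RNA polymerase I factor SL1, rose (0.33), and DDX18, a nucleolar helicase, fell (-0.19).

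Transcripts of mitochondrial DNA fell in 11 of 13 cases and rose in 1 (0 without shControl replicate 2 or shIMPDH2 replicate 1 and with DESeq2), and the control library that stood apart touches these values. They took 4.55, 5.35 and 5.54% of counts in shControl and 4.40, 4.51 and 4.42% in shIMPDH2. MT-ND4, a complex I subunit, was at 8204, 10298 and 10839 CPM in shControl and 6992, 7358 and 7236 CPM in shIMPDH2 (-0.44, SE 0.0541, adjusted p = 2.11e-07), the first control value being the nearest to the knockdown. MT-ATP6, an ATP synthase subunit, was at 2979, 3914 and 4141 CPM in shControl and 2937, 3059 and 3056 CPM in shIMPDH2, so its groups overlapped through shControl replicate 1, and its change of -0.29 became -0.42 without it. Without that library 12 of 13 fell. MT-CO1 (-0.26), MT-CO3 (-0.36), MT-ND3 (-0.48) and MT-ND5 (-0.23) fell too. Against shIMPDH1, 9 of 13 were lower and 0 higher, and in shIMPDH1 against the shared controls 1 rose and 0 fell. Of 50 nuclear-encoded respiratory chain genes 18 fell and 4 rose, but over the alternatives 9 to 20 fell and 3 to 11 rose, 9 rising without shIMPDH2 replicate 1. The share of this list called, 44%, was near the 38.4% over all genes.

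Markers of other cell types moved within the line. In bulk RNA, fewer cells of a type and less RNA per cell cannot be told apart. Of 6 measured cholangiocyte markers 4 fell and 1 rose, with a summed level of 258 to 265 CPM in shControl and 217 to 227 CPM in shIMPDH2. Of 7 enterocyte markers 5 fell and 2 rose, or 1 without shControl replicate 1, with sums of 449 to 459 and 461 to 465 CPM, and FABP2, an enterocyte fatty acid binding protein, had 0 counts in every library. Among 6 fibroblast markers PDGFRA fell (10.5 to 5.31 CPM, -0.98), PDGFRB fell (-0.17, adjusted p = 0.0236, and 0.157, 0.0505 and 0.0567 without shControl replicate 2, shIMPDH2 replicate 2 and shIMPDH2 replicate 3, and 0.0771 with DESeq2) and COL1A1 rose (0.34). PECAM1, of endothelium and platelets, fell from 12.7 to 7.16 CPM (-0.83), while CDH5 was at 0.286 and 0.364 CPM and was not called. The measured immune markers were LYZ, lysozyme, at 915 and 882 CPM, and CD14, at 4.59 and 5.13 CPM, and neither was called. Without shControl replicate 1, LYZ was called (-0.08, adjusted p = 0.00927). The part of such cells in the results above was not tested.

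By position, calls leaned to 1 side on several chromosomes. Of 14680 tested genes with a position on the listed chromosomes, 20.7% rose and 21.9% fell. They include 24 of mitochondrial DNA, of which 20.8% rose and 45.8% fell, and the rest lie on nuclear chromosomes. On chromosome 8, 32.9% rose and 14.9% fell. On chromosomes 6, 7 and 9, 14.8, 12.8 and 11.5% rose and 30.5, 29.6 and 31.1% fell. Chromosome 21 had 8.11% rising and 23.6% falling, chromosome 17 had 14.7% and 27.1%, and the X chromosome 26.2% and 17.6%. The shifts were small in size, with a median log2 fold change of 0.063 on chromosome 8, -0.050 on chromosome 6, -0.055 on chromosome 7 and -0.054 on chromosome 9. In the direct comparison with shIMPDH1 the same medians were -0.027, 0.011, -0.068 and -0.046. A difference in chromosome content between the cell pools was not tested.

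**Figure D5:**
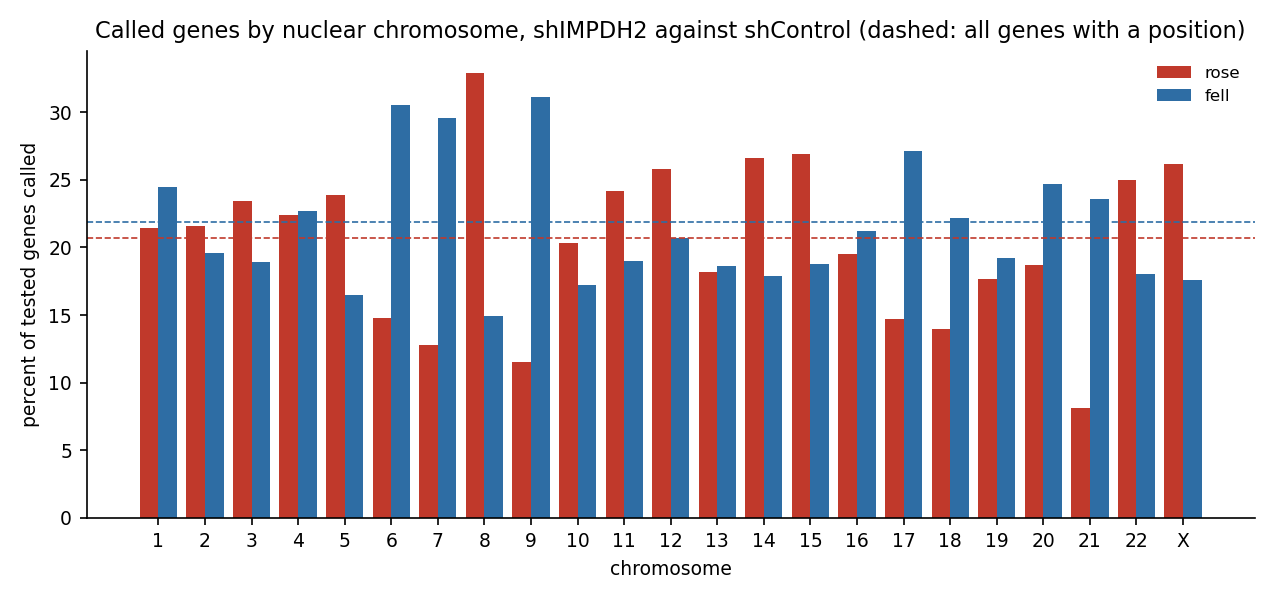
Percent of tested genes on each nuclear chromosome (horizontal axis) that rose (red) or fell (blue) in shIMPDH2 against shControl, with dashed lines at 20.7% and 21.9% for all genes with a position, mitochondrial DNA included. Of the nuclear chromosomes, 8 has the highest share rising (32.9%), and 9, 6 and 7 have the highest shares falling.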

How the data were processed

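RNA of 9 Huh7 libraries, 3 per group, was measured as read counts per gene. The authors deposited 1 table of raw counts with gene symbols. Per the submitters' processing notes, Trim Galore, cutadapt, STAR and featureCounts were used with genome build hg38. The sources used here give no versions, annotation release, strand setting or handling of multi-position reads. In R 4.3.3, edgeR 4.0.16 was run on the deposited counts with its default filter by group (17396 genes kept), TMM scaling and 1 quasi-likelihood model over all 9 libraries, tested on simulated data. At an absolute log2 change of 0.3 it recovered 58 of 100 genes, and at 1 it recovered 84 of 100, with 10 false calls among 17396 genes. Only these genes were changed in the simulation, whereas 38.4% of genes were called in the data. Its rate of false calls therefore need not hold for the data. Library totals of 44560837 to 58370328 counts set the precision. A gene was called at a Benjamini-Hochberg adjusted p under 0.05, and SE is the log2 fold change divided by the square root of F. The common biological coefficient of variation was 0.0268. All columns were assigned from their names.

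Members, gene lists and tests were chosen with earlier results of these data known. Named genes are the guanine nucleotide list, the 12 rising and 12 falling genes of largest fold and the 6 and 6 beyond both other groups (mean log2 CPM of at least 2), the 6 and 6 of largest CPM change, and up to 5 called members of smallest p per list. A1CF, CD14, CDH5, DPP4 and LYZ were chosen after their values were seen. Some genes that the rule names are not reported here. 12 listed symbols were matched through a synonym. Positions are from GENCODE 29 on GRCh38, where 36985 of 58684 symbols matched 1 gene. Alternatives were DESeq2 1.42.0, other scalings, filters and thresholds, fewer groups, a replicate block and leaving out each library. Leaving out shIMPDH1 libraries was added after seeing the data.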

Additional observations from a re-analysis of the deposited data

How the results depend on the processing

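Against shControl, 6687 genes were called, 3229 rising and 3458 falling. Under the alternatives the count was 6698 with DESeq2 size factors, 6768 with library totals (3705 rising and 3063 falling), 6654 with upper quartile scaling, 5848 with DESeq2, 6416 of 32319 without a filter, 6419 of 13397 at a mean CPM of 1 or more, 6385 with only the 2 groups fitted and 4920 at an adjusted p under 0.01. Leaving out 1 library gave 5687 to 6231, and between the knockdowns 6822 to 7241 in place of 7648. No named gene reversed among those called, and no scaling moved the median of all genes by more than 0.03. The share called does depend on the filter, at 19.9% without one and 47.9% at a mean CPM of 1 or more. NME2, not called, passed when only the groups compared were fitted (adjusted p = 0.0408). Changes under a few percent and genes near 3 counts are at the limit of this depth.

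By a correlation over 0.1 in every pair, same-numbered libraries did not pair. Their deviations from group means correlated at 0.006, 0.043 and -0.007 between shControl and shIMPDH2. The 6 same-numbered pairs with shIMPDH1 correlated at 0.237, 0.08 and 0.047 (shControl) and 0.16, 0.029 and 0.063 (shIMPDH2), so only replicate 1 passed 0.1. With the replicate block 6854 genes were called against shControl and 7852 against shIMPDH1.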
